A study of Mus musculus with 4 samples.

Results

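Open chromatin at the genes of the myosin light chains and their kinases was compared among 4 muscles of wild-type mice (C57BL/6 in the labels, C57BL/6J in the study's methods) by ATAC-seq, in which a transposase cuts accessible DNA. The muscles were the extensor digitorum longus (EDL) and the quadriceps femoris (Quad), both mostly made of fast fibres, the soleus (Sol), which is rich in slow fibres, and the diaphragm (Dia), a mixed muscle that works without rest. The study's methods describe young adult male mice, untreated in these groups, and the labels call each of the 4 libraries pooled, without the number of animals. Members were all called peaks whose nearest transcription start site (TSS) the authors assigned to Myl1, Myl2, Myl3, Myl4, Mylpf, Myl6, Myl6b, Mylk2 or Mylk4. This gave 101 peaks of 120839 in the 4 lists, with 29 of the 30136 EDL peaks, 30 of the 40337 of Quad, 28 of the 28784 of Sol and 14 of the 21582 of Dia. Each muscle had 1 deposited sample with 1 peak list, called a library here. Whether it combines replicates is not given. Differences describe these libraries, and no p-value between muscles was computed.

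A myosin head carries an essential and a regulatory light chain wrapped around its lever arm. Fast fibres use Myl1 (essential) and Mylpf (regulatory), slow fibres and the heart use Myl3 and Myl2, and Myl4 is the essential chain of atria and embryonic muscle. Myl6b is an essential chain of slow skeletal and non-muscle cells, and Myl6 that of non-muscle and smooth muscle cells. Mylk2 is the calcium- and calmodulin-dependent kinase that phosphorylates the regulatory light chain of skeletal muscle, and Mylk4 belongs to the same kinase family.

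The lists differed before any gene was considered. Quad had the longest list at the lowest depth inferred from the scores, 78.1 M tags (M, mega), whereas the other libraries reached 99.3 to 105 M, and Dia had the shortest list. A missing peak means only that none was called in that list. Muscle markers were present as labelled, with a peak at 8 of 8 genes in EDL, Quad and Sol and 7 of 8 in Dia, and of 3 cardiac markers, Nppa and Myh6 had no peak in any list and Tnnt2 had 1, in Dia (percentile 28.1 of the list). Markers of other cell types had peaks too, with 8 to 17 a list for Pecam1, Cdh5 and Tek of the endothelium together. The leukocyte, fibroblast and smooth muscle markers, 3 genes each, had between 1 and 8 peaks a list, with Cd68 at 0 in all 4 lists. Fewer nuclei of a type and less open chromatin per nucleus cannot be told apart in such tissue, and the part of these cells in the results below was not tested.

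The sequences that follow are the parts outside annotated exons of a selection of member peaks. Of the windows called in EDL and Quad only, both of Myl1 and 1 of the 3 of Mylk2 are shown, with the intron 3 window of Mylk2 that was called in Sol too. Of those called in Sol only, 2 of the 3 of Myl3 and 1 of the 2 of Myl2 are shown. For comparison, the highest-ranked windows of Mylk4 and Mylpf, called in every muscle, are added. They are written 5′ to 3′ on the strand of the gene, from GRCm38.p6, the assembly behind mm10. Here and below, the distance of a region or peak called in several lists is the median over those lists. A single window can differ from it, as the EDL window near the first Myl1 start does, at −475 bp. Capitals mark matches on either strand to motifs of muscle regulators: MEF2 (10 letters that begin with CTA, go on with 4 letters A or T and end in TAA or TAG), the E-box with the letters CAGCTG, the element MCAT with the letters CATTCC, CArG (10 letters, CC and GG around 6 letters A or T), the NFAT site with TGGAAA, the ERR site with TCAAGGTCA, and AP-1 as TGACTCA. AP-1 was also searched with the middle base exchanged, as TGAGTCA.
Myl1, 444 bp upstream of the first start (window of the EDL list, chr1:66945496-66945635, minus strand): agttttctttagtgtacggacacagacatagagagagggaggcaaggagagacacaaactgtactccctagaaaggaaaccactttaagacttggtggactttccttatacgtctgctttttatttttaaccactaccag
Myl1, intron, 1.34 kb downstream (window of the EDL list, chr1:66943613-66943821, minus strand): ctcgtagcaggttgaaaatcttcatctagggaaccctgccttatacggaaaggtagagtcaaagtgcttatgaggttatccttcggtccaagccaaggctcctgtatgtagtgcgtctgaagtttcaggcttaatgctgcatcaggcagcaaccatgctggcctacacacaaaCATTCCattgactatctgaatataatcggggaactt
Mylk2, 5.77 kb upstream (window of the EDL list, chr2:152905476-152905684, plus strand): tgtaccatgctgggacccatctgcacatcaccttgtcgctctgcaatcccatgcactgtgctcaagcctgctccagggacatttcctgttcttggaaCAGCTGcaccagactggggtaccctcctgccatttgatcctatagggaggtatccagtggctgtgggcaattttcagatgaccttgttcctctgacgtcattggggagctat
Mylk2, intron 3 (window of the EDL list, chr2:152914506-152914714, plus strand): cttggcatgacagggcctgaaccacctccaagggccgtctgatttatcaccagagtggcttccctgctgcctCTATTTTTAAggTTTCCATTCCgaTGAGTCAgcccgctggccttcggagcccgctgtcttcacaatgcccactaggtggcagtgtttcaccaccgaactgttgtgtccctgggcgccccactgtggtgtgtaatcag
Myl3, promoter (window of the Sol list, chr9:110763440-110763645, plus strand): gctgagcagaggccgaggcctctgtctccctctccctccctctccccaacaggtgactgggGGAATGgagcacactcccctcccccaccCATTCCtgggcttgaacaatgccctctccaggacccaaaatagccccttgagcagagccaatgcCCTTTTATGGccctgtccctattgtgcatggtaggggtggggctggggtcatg
Myl3, intron, 0.838 kb downstream (window of the Sol list, chr9:110764416-110764622, plus strand): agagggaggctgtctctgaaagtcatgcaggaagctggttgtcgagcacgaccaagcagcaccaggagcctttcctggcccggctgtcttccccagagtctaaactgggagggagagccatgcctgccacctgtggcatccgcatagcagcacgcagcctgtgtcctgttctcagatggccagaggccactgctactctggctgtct
Myl2, 2.57 kb upstream (window of the Sol list, chr5:122098280-122098486, plus strand): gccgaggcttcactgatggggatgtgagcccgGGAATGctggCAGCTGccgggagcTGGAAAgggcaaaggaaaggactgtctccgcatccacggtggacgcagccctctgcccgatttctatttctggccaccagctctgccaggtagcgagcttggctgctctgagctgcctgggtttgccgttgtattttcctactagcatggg
Mylk4, intron, 17.1 kb downstream (window of the EDL list, chr13:32764521-32764729, minus strand): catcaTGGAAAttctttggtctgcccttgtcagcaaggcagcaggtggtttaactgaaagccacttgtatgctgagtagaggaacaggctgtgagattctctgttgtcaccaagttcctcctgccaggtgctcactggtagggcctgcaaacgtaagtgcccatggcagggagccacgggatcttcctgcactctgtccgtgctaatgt
Mylpf, intronic part of the window over the TSS (window of the EDL list, chr7:127208952-127209051, plus strand): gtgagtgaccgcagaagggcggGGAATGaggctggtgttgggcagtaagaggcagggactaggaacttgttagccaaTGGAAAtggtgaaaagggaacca
The EDL window of Mylk2 intron 3 held matches to 4 of the 7 motifs within bases 73 to 103: MEF2, NFAT, MCAT and AP-1, of which the NFAT and MCAT matches overlap. The Quad peak of this region lacked the AP-1 match, and the Sol peak held the MEF2 match only. The DNA is the same, and the called windows are shifted. The Quad window ended at chr2:152914605, inside the AP-1 match, and the Sol window at chr2:152914589, before the NFAT match. The missing matches therefore reflect the window ends and not a difference between muscles. The Myl3 promoter held 2 MCAT matches and a CArG match, and the Myl2 window held MCAT, E-box and NFAT within 30 bases. The upstream Myl1 window and the Myl3 intron window held none of the 7 as searched. With T also allowed as the first letter of MEF2, a form added after the data were seen, the upstream Myl1 window held a MEF2 match at bases 121 to 130. A match is a description of letters only.

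Fast members (Myl1, Mylpf, Mylk2 and Mylk4) had 24 peaks each in EDL and Quad, 18 in Sol and 10 in Dia. Their shares of the whole lists were 0.0796% (EDL), 0.0595% (Quad), 0.0625% (Sol) and 0.0463% (Dia). By share, Quad thus did not stand above Sol. Mylk4 was counted as fast by choice, without evidence in the sources used here. It had 9, 8, 7 and 5 of these peaks. Slow members (Myl2, Myl3 and Myl6b) had 2, 3, 7 and 2, or 0.00664%, 0.00744%, 0.0243% and 0.00927% of the lists. By gene, Quad peaks outnumbered Sol peaks at 4 members (Myl1, Myl6, Mylk2, Mylk4), as they did at 45.7% of all 17157 genes with a peak, and Sol peaks outnumbered Quad peaks at 3 (Myl2, Myl3, Myl4), as at 12.4% of all genes. More peaks in EDL than in Sol were found at 3 members (Myl1, Mylk2, Mylk4; 24.9% of all genes), and more in Sol than in EDL at 2 (Myl2, Myl3; 21% of all genes). With each list held to its 20000 highest-scored peaks, Quad exceeded Sol at 3 members (Myl1, Myl6, Mylk2; 20.6% of genes) and Sol exceeded Quad at 2 (Myl2, Myl3; 20.9%). In these shortened lists EDL exceeded Sol at 4 members (Myl1, Myl4, Mylk2, Mylk4; 19.5%) and Sol exceeded EDL at 2 (Myl2, Myl3; 19.7%). The members' shares are counts over 9 genes, so they are read beside these backgrounds and not as a test.

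**Figure D1:**
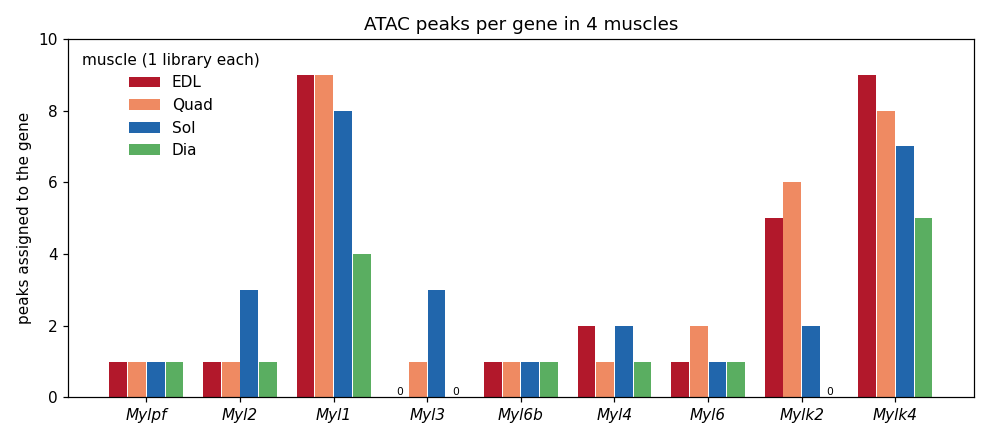
Bars give the number of ATAC peaks assigned to each gene (vertical axis, starting at 0) in EDL, Quad, Sol and Dia, 1 library each. Myl3 and Myl2 had 3 peaks each in Sol, whereas Mylk2 had 5 (EDL), 6 (Quad), 2 (Sol) and 0 (Dia).

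Peaks of different lists that overlapped by at least 1 bp were joined into 40 regions at the members, of 53883 in all. Of these, 13 (32.5%) held a peak in all 4 lists, against 26.9% of all regions. EDL and Quad alone shared 8 member regions (20%, against 8.05% of all regions), and 7 (17.5%) were called in all lists but Dia, against 8.09%. Sol alone had 7 (17.5%, against 8.62%) and Quad alone 3 (7.5%, against 22.7%). No member region was found in EDL alone or in Dia alone, as 6.71% and 4.61% of all regions were. The 8 regions of EDL and Quad all lay at Myl1, Mylk2 or Mylk4, and 5 of the 7 of Sol alone at Myl2 or Myl3, the other 2 being at Myl4 and Mylk4. At promoters 5 of 10 member regions were called in every list, where 66.1% of all promoter regions were, and 8 of the 30 others were, where 16.0% of all other regions were.

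By the authors' annotation, 23 of the 101 member peaks were promoter peaks (a window that starts 1 kb before a TSS and ends 100 bp after it), 51 intergenic, 25 intronic and 2 exonic, and the distance to the TSS ran from 2 bp to 180 kb. Promoter peaks numbered 6 in EDL (20.7% of its member peaks), 7 in Quad (23.3%), 6 in Sol (21.4%) and 4 in Dia (28.6%), below the 30.7%, 25.5%, 31.9% and 41.3% of the whole lists. The median distance to the TSS was 8207 bp, 7586 bp, 11957 bp and 12731 bp in the same order.

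Pairwise sharing was taken as a share of each list. A peak met another list if its joined region held a peak of that list. Of the EDL member peaks, 28 of 29 (96.6%) met a Quad peak, against 80.8% of the whole EDL list, and 27 of 30 Quad member peaks (90.0%) met an EDL peak, against 60.4%. With Sol, 21 of 29 EDL member peaks (72.4%, whole list 68.3%) and 19 of 30 Quad member peaks (63.3%, whole list 54.0%) shared a region. In the other direction, 20 of 28 Sol member peaks met an EDL peak (71.4%, whole list 71.5%) and 14 of 28 met a Dia peak (50%, whole list 57.9%). All 14 Dia member peaks met a Sol peak in this sense, against 77.2% of the Dia list. At the Mylk4 region 5.20 kb downstream, the Dia and Sol peaks did not overlap and were joined only through the EDL peak.

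Peak strength was described by the percentile of the Peak Score within its own list, so that 50 is the middle of a list. The median percentile of the member peaks was 76.3 for EDL (n = 29 peaks), 70.9 for Quad (n = 30), 54.9 for Sol (n = 28) and 34.7 for Dia (n = 14). The 95% order-statistic intervals were 60.3 to 85.0, 60.1 to 78.4, 41.6 to 79.2 and 13.2 to 87.3. They describe the spread over member peaks, which are not replicates of a muscle, and do not compare the muscles. The lists differ in length, and in lists held to the 20000 highest-scored peaks the medians were 71.0 (EDL), 48.6 (Quad), 51.0 (Sol) and 31.8 (Dia), so Quad no longer stood above Sol. Peaks joined into a region can overlap only in part, so its ranks in different lists can come from shifted windows. Intervals given below for a single peak are exact 95% Poisson limits of its inferred tags placed in the list, and they cover counting error only. Over all regions with a peak in both lists, such intervals lay apart with EDL above Dia at 10.7%, with EDL above Quad at 0.567%, with Quad above EDL at 7.89%, with Quad above Sol at 9.11% and with EDL above Sol at 3.6%.

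**Figure D2:**
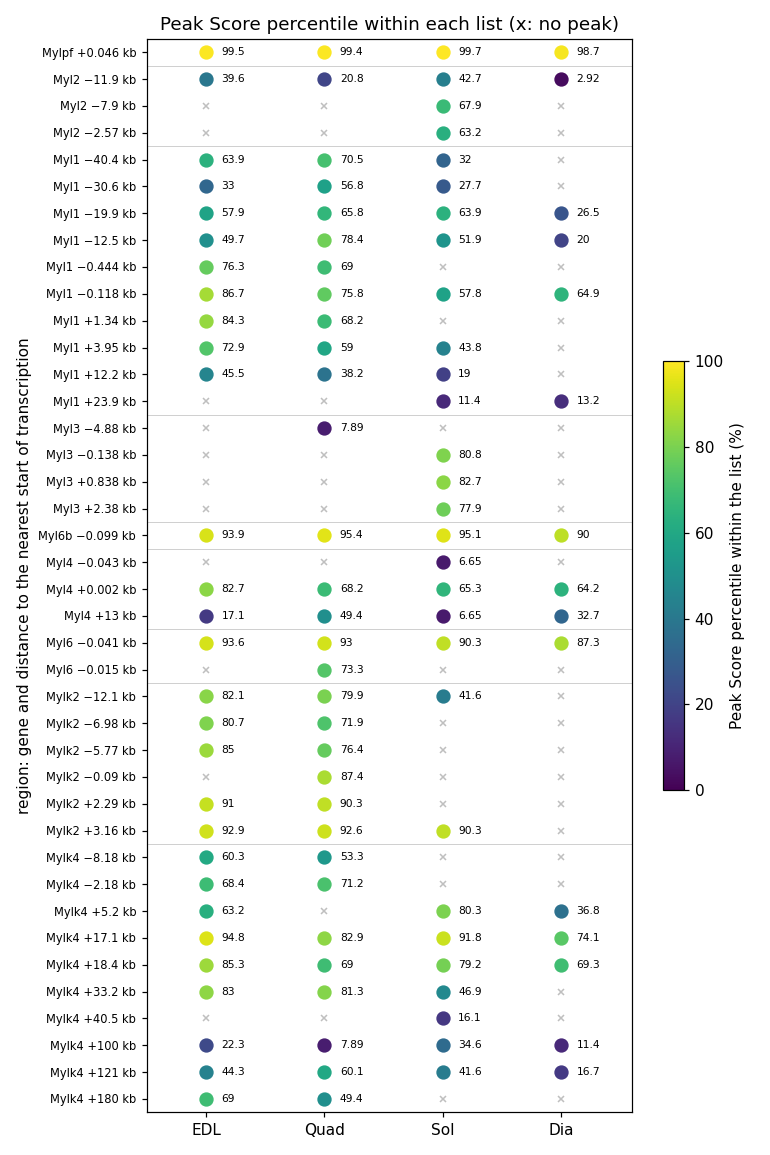
Each row is a member region, named by gene and distance to the nearest TSS (kb, − upstream), and each column a muscle with 1 library. Colour and number give the Peak Score percentile in that list and a cross marks no called peak. Mylpf stood above 98 in every muscle, while the 3 high Myl3 regions appeared in Sol only.

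Among the regulatory light chains, Mylpf had the strongest peak of all members. It lay over the TSS (chr7:127208776-127209063 over the 4 lists) and ranked at percentile 99.5 in EDL and 99.4 in Quad, and 99.7 in Sol and 98.7 in Dia. Its counting intervals, 99.0 to 99.8 in EDL and 99.3 to 99.9 in Sol, overlapped, so its rank did not separate the fast muscles from Sol at this depth. This was the only peak assigned to Mylpf in each list, over a gene of 5.41 kb, and a further RefSeq start inside the gene had none. The annotation column named the promoter after the neighbouring gene Tbc1d10b, although the nearest TSS was that of Mylpf.

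Myl2, by contrast, had no peak at its main TSS in any list. A region 11.9 kb upstream was called in all 4 muscles, at percentile 39.6 (EDL), 20.8 (Quad), 42.7 (Sol) and 2.92 (Dia), all in the lower part of the lists. Only in Sol were a peak 7.90 kb upstream (percentile 67.9, interval 54.1 to 79.0) and a peak 2.57 kb upstream (63.2, interval 48.5 to 75.5) called. The nearest EDL peak was 3774 bp and 9102 bp away from them, and the nearest Dia peak 3733 bp and 9061 bp. No other list therefore had a called peak closer than 3733 bp to either.

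Myl1 gives rise to the fast essential chains MLC1f and MLC3f from separate starts, and both starts had peaks. They are called first and internal here, as the starts that the authors' distances used. RefSeq also lists a predicted Myl1 start further upstream, at chr1:66947932. The EDL window near the first start overlaps annotated exon sequence in part, outside the 140 bases printed above. The peak 444 bp upstream of the first start, that of MLC1f, was called in EDL (percentile 76.3, interval 65.4 to 84.4) and Quad (69.0, interval 53.9 to 80.1) but not in Sol or Dia, where the nearest peaks lay 4166 bp and 9829 bp away. The peak 118 bp upstream of the internal start, that of MLC3f, was called in all 4 lists. It ranked at 86.7 in EDL and 75.8 in Quad, and 57.8 in Sol and 64.9 in Dia. Here the EDL interval, 80.1 to 91.2, lay above that of Sol, 42.2 to 71.3, and above that of Dia, 51.1 to 76.1 (over all shared regions 3.6% and 10.7%), and it overlapped that of Quad, 63.5 to 84.5.

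The introns between the 2 Myl1 starts held further peaks. The region 1.34 kb downstream of the first start was called in EDL (84.3) and Quad (68.2) only, with the nearest Sol peak 2403 bp away. That of 3.95 kb downstream was called at 72.9 in EDL, 59.0 in Quad and 43.8 in Sol, and not in Dia. Upstream lay 4 intergenic regions, at 12.5, 19.9, 30.6 and 40.4 kb, all of them called in EDL, Quad and Sol, and the nearer 2 in Dia as well. At 12.5 kb Quad stood highest at 78.4, against 49.7 in EDL, 51.9 in Sol and 20 in Dia, and its interval, 67.0 to 86.3, lay above that of EDL, 30.9 to 64.8, as at 7.89% of all shared regions. A weak region 23.9 kb downstream of the internal start was called in Sol (11.4) and Dia (13.2) only.

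Myl3 showed the opposite distribution. Its promoter peak, 138 bp upstream of the TSS, was called in Sol only, at percentile 80.8 (interval 71.8 to 87.9, 125 inferred tags). Peaks 0.838 kb and 2.38 kb downstream, both in introns, were also called in Sol only, at 82.7 (interval 74.0 to 88.9) and 77.9 (interval 67.0 to 85.7). In EDL and Dia no peak was assigned to Myl3, and the nearest called peaks to the promoter lay 17803 bp and 17828 bp away. Quad had a single peak 4.88 kb upstream, at percentile 7.89 with an interval from 0 to 40.9.

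The remaining essential chains had peaks in every muscle. The Myl6b promoter ranked at 93.9 (EDL), 95.4 (Quad), 95.1 (Sol) and 90.0 (Dia), and that of Myl6 at 93.6, 93.0, 90.3 and 87.3. The Myl6b window was named by the annotation after a non-coding RNA that starts nearby. Quad had a second Myl6 peak at an alternative start, at 73.3, for which the nearest EDL peak was 718 bp away. At Myl4 the region over the first start also covers the start of Cdc27, a cell cycle gene read in the opposite direction. It was called in all 4 lists (82.7 in EDL and 68.2 in Quad, and 65.3 in Sol and 64.2 in Dia), but the authors' nearest TSS was that of Myl4 in EDL, at 2 bp, and that of Cdc27 in the other 3, at −8 bp (Quad), 121 bp (Sol) and 153 bp (Dia). The count of Myl4 peaks therefore depends on this assignment. At an internal Myl4 start a peak was called in Sol only, at the low percentile of 6.65, and the region 13.0 kb downstream of a further internal start ranked at 17.1, 49.4, 6.65 and 32.7.

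**Figure D3:**
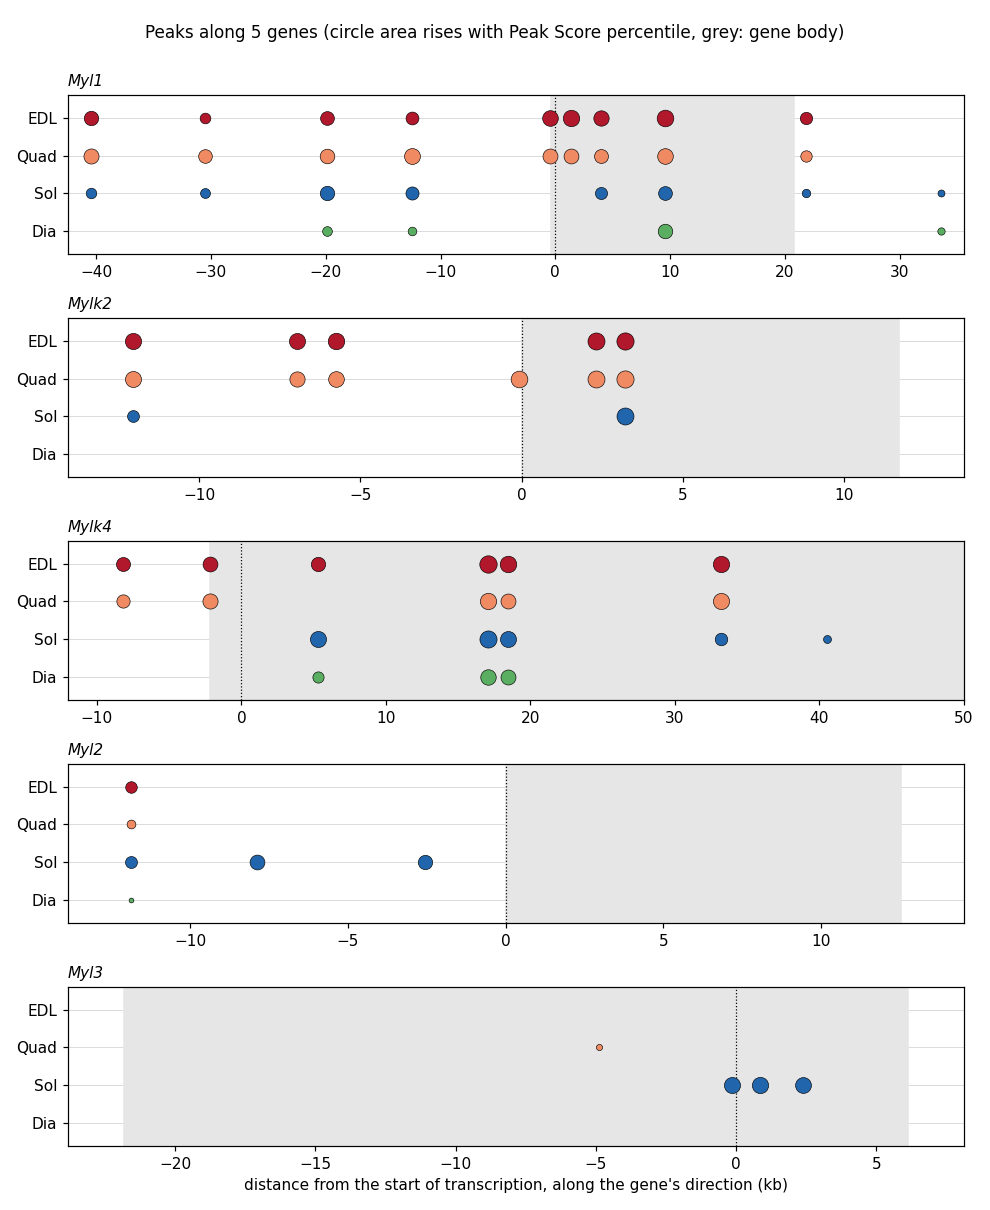
Circles mark peaks in the 4 muscles along Myl1, Mylk2, Mylk4, Myl2 and Myl3, by distance from the TSS along the gene (kb; for Myl1 the first start), with circle area rising with percentile and the gene body in grey. The window for Mylk4 ends at 50 kb and leaves out 3 regions beyond it, and the 3 Sol circles at Myl3 stand against empty rows of EDL and Dia.

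Of the kinases, Mylk2 separated the muscles most by number of peaks, with 6 regions in all. The intron 3 region, 3.16 kb downstream of the TSS, was called at 92.9 in EDL, 92.6 in Quad and 90.3 in Sol, with overlapping intervals. The exon 3 region 2.29 kb downstream was called in EDL (91.0) and Quad (90.3) only, and the nearest Sol peak was the intron peak 631 bp away. Regions 5.77 kb and 6.98 kb upstream were called in EDL (85.0 and 80.7) and Quad (76.4 and 71.9) only. The region 12.1 kb upstream was called in EDL (82.1, interval 73.2 to 88.3), Quad (79.9, interval 69.5 to 87.3) and Sol (41.6, interval 21.2 to 59.0), and the Sol interval lay below both others (over all shared regions 3.6% for EDL and 9.11% for Quad). The promoter itself, 90 bp upstream, was called in Quad only, at 87.4, with the nearest EDL peak 2188 bp away. In Dia no Mylk2 peak was called, and the nearest Dia peak to any of the 6 regions lay 47598 bp from it.

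Mylk4, spread over 83.1 kb, had 10 regions, none of which the authors annotated as a promoter. The strongest, in an intron 17.1 kb downstream of the TSS, was called in every muscle, at 94.8 (EDL), 82.9 (Quad), 91.8 (Sol) and 74.1 (Dia). EDL (interval 92.1 to 96.8) stood above Quad (73.6 to 89.1, over all shared regions 0.567%) and Dia (62.6 to 82.8, over all 10.7%) there, and its interval overlapped that of Sol (87.7 to 94.8). The EDL window (chr13:32764521-32764729) and the Quad window (chr13:32764684-32764872) overlap only in part, so these 2 ranks come largely from different bases. A second intron region 18.4 kb downstream followed in all 4 lists at 85.3, 69.0, 79.2 and 69.3. Regions 2.18 kb and 8.18 kb upstream were called in EDL (68.4 and 60.3) and Quad (71.2 and 53.3) only. The region 33.2 kb downstream stood at 83.0 in EDL and 81.3 in Quad but 46.9 in Sol, where the interval of 28.6 to 62.8 lay below those of EDL, 74.7 to 88.9, and Quad, 71.5 to 88.4, again beside 3.6% and 9.11% of all shared regions. The region 5.20 kb downstream went the other way, with 80.3 in Sol, 63.2 in EDL, 36.8 in Dia and no peak in Quad, although the EDL and Sol intervals overlapped. Past the gene, regions 100 kb and 121 kb downstream were called weakly in all 4 lists, between 7.89 and 60.1, and a region 180 kb downstream in EDL (69.0) and Quad (49.4).

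Where a member region had a peak in both EDL and Sol, its 2 percentiles were set side by side. Of 21 such regions, 14 stood higher in EDL and 7 in Sol, with a median difference of 3.35 percentile points, against −0.03 over all 20584 shared regions. The intervals did not overlap at 3 member regions, all higher in EDL: the internal promoter of Myl1, the Mylk2 region 12.1 kb upstream and the Mylk4 region 33.2 kb downstream. Over all shared regions EDL lay above Sol in this way at 3.6% and Sol above EDL at 2.98%, and no member region was of the second kind.

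**Figure D4:**
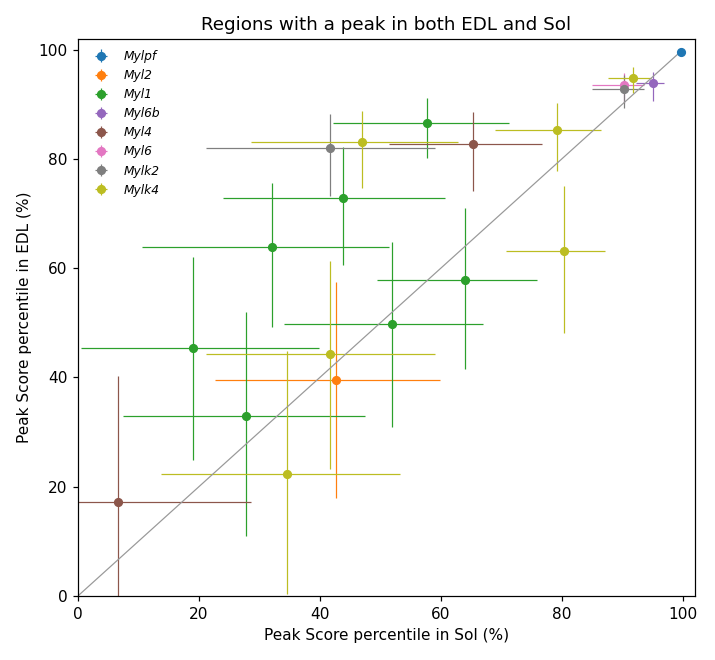
Points are the 21 member regions with a peak in both lists, with the Peak Score percentile in Sol on the horizontal and in EDL on the vertical axis (%), coloured by gene, and bars give the 95% counting intervals. The grey line marks equal percentiles, and 14 points lie above it.

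Base composition differed among the promoters. Across the 4 lists, promoter peaks had a median GC content of 63.6% to 64.6% and a CpG observed/expected ratio of 0.815 to 0.823. The main promoter window of Myl6 had a ratio of 0.607 to 0.643 over the lists, that of Myl6b 0.554 to 0.654 and the shared start of Myl4 and Cdc27 0.874 in EDL. The ratio was 0.0532 at Myl3, 0.215 to 0.285 at the first Myl1 start, 0.0743 to 0.307 at the internal one and 0.482 at Mylk2. Mylpf, the highest-ranked of all, had 0.377 to 0.561 at a GC content of 49.7% to 51.7%. Outside promoters the member peaks had a median GC content of 50.2% to 50.8%, against 51.7% to 52.4% for all such peaks.

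Motif matches in member peaks were compared with all peaks of the same list, both strands searched. NFAT letters occurred in 8 of 29 EDL member peaks (27.6%, all peaks 17.8%), 7 of 30 in Quad (23.3%, all 16.4%), 8 of 28 in Sol (28.6%, all 17.9%) and 4 of 14 in Dia (28.6%, all 18.0%). MCAT occurred in 6 of 29 (20.7%, all 12.2%), 6 of 30 (20%, all 10.7%), 6 of 28 (21.4%, all 11.9%) and 3 of 14 (21.4%, all 11.7%). The 4 lists share many of these regions and so do not count as repeats. Windows of a shared region are shifted between lists, so its matches can differ by list. Member lists held fewer promoter peaks than the whole lists, and outside promoters the MCAT shares were 21.7% (EDL, all such peaks 14.3%), 21.7% (Quad, all 12.2%), 13.6% (Sol, all 14.0%) and 20% (Dia, all 14.5%). NFAT shares outside promoters were 26.1% (all 21.2%), 21.7% (all 19.0%), 36.4% (all 22.1%) and 30% (all 23.1%) in that order. The MCAT share of Sol members, 3 of 22 peaks, was thus close to that of all such peaks. E-box shares were 17.2%, 16.7%, 25.0% and 21.4%, against 20.8%, 19.1%, 20.3% and 19.5% of all peaks. MEF2 was found in 2 EDL member peaks (6.90%, all 4.40%), 3 of Quad (10%, all 3.44%), 2 of Sol (7.14%, all 4.35%) and 1 of Dia (7.14%, all 3.09%). Outside promoters the MEF2 shares were 4.35% (EDL, all such peaks 5.88%), 8.70% (Quad, all 4.31%), 4.55% (Sol, all 5.99%) and 0% (Dia, all 4.74%). Members thus lay below all such peaks in every list but Quad. AP-1 was found in 4 (13.8%, all 7.23%), 1 (3.33%, all 6.89%), 2 (7.14%, all 7.35%) and 2 (14.3%, all 6.86%), in the same order. Its shares outside promoters were 13.0% (EDL, all 9.33%), 0% (Quad, all 8.47%), 4.55% (Sol, all 9.69%) and 10% (Dia, all 9.94%). CArG occurred in 1 Quad and 1 Sol member peak and ERR in none, where the whole lists had 1.03% to 1.21% and 0.283% to 0.407%.

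The wider pathway was described from lists of related genes. Of 15 other kinases, phosphatase subunits and calmodulin genes, Quad peaks outnumbered Sol peaks at 6, were fewer at 2 and equal at 7, beside 45.7% and 12.4% of all genes for the first and second kind. Between EDL and Sol the direction was the other one, with more EDL peaks at 3 of the 15 and more Sol peaks at 6 (24.9% and 21% of all genes). Ppp1r14a had none in any list. Ppp1r12b, the phosphatase targeting subunit of striated muscle, had 14 peaks in EDL, 15 each in Quad and Sol and 12 in Dia. Mylk3, the cardiac light chain kinase, had none in EDL or Quad, 2 in Sol (highest percentile 63.9) and 1 in Dia (48.7). Among 7 sarcomeric heavy chains, Myh4, that of the fastest fibres, had 1 peak in EDL (84.3), Quad (76.4) and Sol (17.6) and 0 in Dia, and Myh7, that of slow fibres, had 2 in Sol and 0 elsewhere. Myh2 had 2 peaks each in EDL and Quad and 1 each in Sol and Dia, none above percentile 23.4. Over the 7 genes, Quad peaks outnumbered Sol peaks at 2 and were fewer at 2. EDL exceeded Sol at 2 of them and Sol exceeded EDL at 2, beside the same shares of all genes. Quad peaks outnumbered Sol peaks at 3 of 7 other thick filament genes and were fewer at 2, and at 5 other light chains they were more at 3 and fewer at none, again beside 45.7% and 12.4% of all genes. EDL exceeded Sol at 3 of the thick filament genes and Sol exceeded EDL at 3, and at the other light chains these counts were 2 and 1. They were 1 and 1 (Pvalb) at the fast fibre markers Myh4, Actn3 and Pvalb. At the slow fibre markers Myh7, Myh7b, Atp2a2 and Tnnc1 they were 0 and 3. With Quad in place of EDL they were 2 and 0 (fast) and 0 and 3 (slow). Tnnc1 had no peak in any list, and Atp2a2 reached percentile 84.0 in Quad and 84.5 in Sol.

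By the highest percentile of a gene in each of the 4 lists, with 0 for no peak, the genes nearest to Mylpf among 17156 were Opa3, Rps6ka2 and Grk6, within 0.236 percentile points. Those nearest to Mylk2 were Atp5c1, Uchl5 and A930033H14Rik, within 2.0 points, all without a Dia peak. Myl2 had Sim1, Lrrn1 and Slc22a3 at 8.32 to 14.3 points, and Myl3 had Timm29, Tgoln1 and Pcbp4 at 7.89 to 7.92 points. This likeness rests on 4 libraries and is a description.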

How the data were processed

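Frozen muscle powder was lysed, nuclei were transposed and the libraries sequenced. Per the study's methods, the authors aligned reads to mm10 with Bowtie2 at default settings and called fixed-width peaks with HOMER. The deposited lists hold, for each peak, a position, a Peak Score, an annotation and the nearest TSS with its distance. In these deposited files the score is a tag count that the authors' tool scaled by library size. Peaks were 188 to 232 bp wide. Whether reads were shifted for the transposase is not given in the sources used here.

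Peaks were selected by assigned gene, ranked within lists and merged across lists at 1 bp of overlap in pandas 2.3.3 and scipy 1.17.1 under Python 3.11.15, tested on simulated data. All scores below 10 were whole multiples of a step, to within the rounding of the files, and the step was taken as 1 tag, which gives depth if scores are scaled to 10 M tags (M, mega). The lowest peaks then held 25 to 36 tags. Starts came from RefSeq, gene bodies from GENCODE and sequences from the GRCm38.p6 genome. Promoter is the authors' class. Gene lists, members and motifs were chosen with earlier results of these data known. The text names the 9 members, related genes by their counts, and the 3 genes nearest in percentile. Protein identities were not computed. Alternatives concerned list length, score minimum, distance, gene assignment, overlap, promoter definition and chromosomes.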

Additional observations from a re-analysis of the deposited data

How the results depend on the processing

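Of 57 values recomputed under an alternative, 51 stayed within 1.5 times the reported count or within the interval of the reported median, and no difference in peak number changed sign. That interval, taken over member peaks, served as a range only and not as a test. With only the upper 50% of each list by score, member peaks fell to 15 in Sol and 6 in Dia. Regions called in all muscles fell to 7. The excess of fast-member peaks in Quad over Sol then grew from 6 to 13, though these upper parts still differ in length. With 20000 peaks in each list that excess was 7. With peaks taken from gene bodies and 10 kb around them, whatever gene the authors assigned, the slow-member difference (Quad minus Sol) went from −4 to −2. In the 20000 highest-scored peaks the median percentile of member peaks in Quad was 48.6 instead of 70.9, because the shortened list drops its lower part, and so fell below that of Sol, 51.0 (54.9 in the whole list). With C or T as the first letter of MEF2, chosen after seeing the data, 4 instead of 3 member regions held a match. No paired analysis was possible because each muscle had 1 library. Depth limits weak peaks most: at the lowest tag numbers the counting interval of a percentile reached down to 0. Quad had the least depth and the longest list, and the cause was not tested.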

Other observations

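Peaks inside or within 10 kb of a member gene were in part assigned to neighbours and so are not among the members. Downstream of Mylk2 a region assigned to Foxs1 was called in EDL (percentile 79.4), Quad (86.8) and Sol (72.7), and not in Dia. Within Myl4 an intron region assigned to Gm11665 stood at 71.3 (EDL), 65.8 (Quad), 33.4 (Sol) and 9.72 (Dia). Near Myl3 a Pth1r intron region was called in all 4 lists, at 79.4 (EDL), 96.1 (Quad), 87.1 (Sol) and 85.1 (Dia).

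Positions were also set against RefSeq starts that the authors' annotation did not use, a look chosen after the data were seen. The Sol peak 7.90 kb upstream of Myl2 was centred 134 bp before an alternative RefSeq start of Myl2. The Mylk4 region called in EDL and Quad 2.18 kb upstream covered another RefSeq start of Mylk4. In the region 5.20 kb downstream, the EDL and Sol peaks covered a predicted start, and the Dia peak ended short of it. These positions are descriptions, and use of these starts in the muscles was not measured here.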
